A study of Mus musculus with 20 samples.

Results

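The serpin family of protease inhibitors was described in liver RNA of adult male mice whose mothers had been kept at different ambient temperatures while pregnant. A gene was a member where the platform annotation gave its row a symbol of Serpin, a clade letter from a to i and a digit, and pseudogene symbols were left out. This gave 55 members among 22206 transcript clusters, the array's rows for single transcription units, and no member had a second row. Members were set against the negative control rows, which were recognised by their row names. Of the 55, 26 had a mean over the 20 arrays above 4.75, the highest mean of those rows on any array. The other 29 lay below it and are called below background. A separate set of background control rows averaged lower, at 3.61 to 3.75 per array. Of the 26, 15 belong to the serpins that hepatocytes secrete into plasma.

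The data were 20 Affymetrix arrays, with 1 array per mouse and 5 mice per group. The mice were inbred C57BL/6NCr males, 4 to 5 months old when sampled, and had lived at 23 °C on chow since the day of birth. The groups differed in the temperature of the dam during gestation, which was 10, 18, 23 or 30 °C, and 23 °C was the control, the standard temperature of the animal house. Dams went to 10 °C or 18 °C for 2 weeks, or to 30 °C for 3 weeks, before breeding, and sires for 3 days. No such move is given for the 23 °C group. In comparisons with 23 °C or 30 °C and in the slope, the move or its length cannot be told apart from temperature. The title of the study concerns brown fat of the mother and glucose tolerance of sons, and groups are named below by maternal temperature. Litter and dam are not given in the labels, so p-values measure the spread between these arrays, which may include littermates.

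Serpins inhibit proteases by a suicide mechanism. The target protease cuts an exposed loop of the serpin, the loop inserts into a sheet of the protein, and the protease is carried along and trapped. The liver is the main source of plasma serpins, which restrain neutrophil elastase, thrombin, plasmin and the first proteases of the complement and contact systems. Some members have lost inhibition and carry hormones or fold collagen, and those of clade B stay inside cells and guard against granule and lysosomal proteases.

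No member passed the test in any comparison. In limma, a linear model that borrows information on the variance across all transcript clusters, 0 of 55 members had a Benjamini-Hochberg adjusted p under 0.05 in the 6 pairs of groups, the F-test over 4 groups or the slope on maternal temperature. The smallest was an adjusted p of 0.188. Over all clusters 0.00901% passed between 10 °C and 23 °C, and 0% in each other test. At an unadjusted p under 0.05 there were 3 members of 55 between 10 °C and 23 °C (11.6% of all clusters), 7 between 18 °C and 23 °C (9.25%) and 3 between 30 °C and 23 °C (4.84%). There were 3 between 10 °C and 30 °C (6.76%), 5 between 18 °C and 30 °C (8.21%) and 1 between 10 °C and 18 °C (8.1%). The F-test gave 5 (9.86%) and the slope 5 (8.15%). The members' shares ran from 1.82% (10 °C against 18 °C) to 12.7% (18 °C against 23 °C), and lay above the share of all clusters in 4 of these tests and below it in 4. Under the alternatives tried 0 members passed after adjustment, while the unadjusted counts ran from 0 to 10. The differences given below are therefore values, none of them a called change. The comparisons share groups, the 23 °C mice above all, so their values are set side by side and are not independent.

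The alpha-1 antitrypsin paralogs come first. Alpha-1 antitrypsin is the plasma inhibitor of neutrophil elastase, and C57BL/6 mice carry several copies of the gene side by side. Their promoters are shown because the copies are nearly the same there while their array values are given one by one below, and probes of such copies may cross-hybridise, so that a value may hold signal of a neighbour. Each sequence is a stretch of 96 bases upstream of the annotated RefSeq start, on the minus strand of build GRCm38.p6, written 5′ to 3′. Capitals mark TGTTTGC, a forkhead-type motif, and GTTAAT, one arm of the palindrome that HNF1 factors bind.
Serpina1a, chr12:103863625-103863720: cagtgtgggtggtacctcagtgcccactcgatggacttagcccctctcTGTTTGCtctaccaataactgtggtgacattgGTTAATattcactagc
Serpina1b, chr12:103738200-103738295: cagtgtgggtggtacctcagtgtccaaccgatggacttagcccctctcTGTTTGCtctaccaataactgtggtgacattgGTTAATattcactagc
Serpina1c, chr12:103904962-103905057: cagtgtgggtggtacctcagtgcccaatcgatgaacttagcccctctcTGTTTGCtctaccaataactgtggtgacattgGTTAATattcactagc
Serpina1d, chr12:103773634-103773729: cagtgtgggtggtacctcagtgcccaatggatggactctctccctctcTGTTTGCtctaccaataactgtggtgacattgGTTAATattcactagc
Serpina1e, chr12:103956960-103957055: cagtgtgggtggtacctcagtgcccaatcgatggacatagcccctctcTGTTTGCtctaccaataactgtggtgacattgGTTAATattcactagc

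Any pair of these windows was identical at 92.7% to 97.9% of bases. Each window was cut from 80 bases before GTTAAT to 10 bases after it, so all were aligned on that motif. Counted from 1 at the 5′ end, Serpina1d differed from Serpina1a by C27A, C29G, T38C, A39T, G40C and C41T, and Serpina1e from Serpina1a by C27A and T37A. GTTAAT began 16 to 27 bases before the annotated start in Serpina1a to Serpina1d and 78 bases before it in Serpina1e. In all, 9 motifs were searched on both strands of the 250 bases upstream of the start, and these 2 are shown because they were found in all 5 paralogs, a choice made after the matches were seen. GTTAAT was present in 6.43% of 32851 RefSeq promoters and in 9 of the 49 members with a promoter entry, which besides the paralogs are Serpina7, Serpinb3d, Serpinb8 and Serpini2. TGTTTGC was present in 4.3% of promoters and in 7 members, the paralogs with Serpina3f and Serpinb9. The full HNF1 palindrome in a strict and a looser spelling (0.00913% and 0.0548% of promoters), CAAAGTCCA (0.384%) and TGTTTAC, another forkhead-type form (3.17%), were in 0 members. TTGCGCAA (0.164%) was in 1 member, TTCNNNGAA (7.02%) in 7 and TTNCNNNAA (32.9%) in 19, and none of these last 3 was in Serpina1a to Serpina1e. The RefSeq entry of Serpina1f holds neither of the shown motifs. A match is a run of letters and was not tested as a binding site.

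The paralogs Serpina1a to Serpina1e lay at the top of the array's scale and their group means were close. Serpina1a averaged 19.78 ± 0.01 in 10 °C, 19.75 ± 0.03 in 18 °C, 19.81 ± 0.02 in 23 °C and 19.80 ± 0.04 in 30 °C offspring (log2 expression values, SD, n = 5 per group here and below). Its 18 °C arrays ran from 19.73 to 19.79 and all lay below the 23 °C arrays, by a margin in the third decimal at the closest pair, with a log2 difference of -0.06 ± 0.09 (SE). The limma SE is wider than the spread of Serpina1a itself, because the model draws each variance towards that of the typical cluster. The brightest row of each array stood at 19.83 to 19.93, so little room for a higher value was left on this scale, on which RMA equalises the arrays.

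Serpina1b ran from 19.07 to 19.36 and Serpina1c from 19.23 to 19.46 over the 20 arrays, with overlapping groups. Serpina1d averaged 19.04 ± 0.07, 19.12 ± 0.08, 19.19 ± 0.04 and 19.21 ± 0.21 in 10, 18, 23 and 30 °C offspring. All 10 °C arrays of Serpina1d (18.94 to 19.12) lay below all 23 °C arrays (19.16 to 19.26), and the log2 difference was -0.16 ± 0.11 (SE, limma adjusted p = 0.62). This was the only member without overlap in that comparison, against 2.45% of all clusters. In the 30 °C group animal 4, at 18.86, was the lowest of all 20 arrays, and the other four ran from 19.22 to 19.38. Within groups Serpina1d went against the background control rows of the arrays, a relation given below that did not pass after adjustment. Those rows averaged 3.71 in 10 °C and 3.65 in 23 °C arrays, while the negative control rows averaged 4.53 and 4.63. The part of either set in the Serpina1d difference was not tested.

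Serpina1e was the most uneven paralog. Its arrays read 19.64, 18.79, 19.77, 19.78 and 19.77 in 10 °C offspring. The 18 °C arrays read 19.42, 19.63, 19.31, 18.65 and 19.84, and the 23 °C arrays 19.58, 19.27, 19.82, 19.91 and 19.69. The 30 °C arrays read 19.83, 19.89, 19.85, 19.86 and 19.85, a narrow band at the top of the scale. All 30 °C arrays lay above all 10 °C arrays, the only member without overlap between these groups (0.982% of clusters), while animal 7 of the 18 °C group (19.84) lay inside the 30 °C band and animal 17 of the 23 °C group (19.91) above it. The difference of 18 °C from 30 °C was -0.49 ± 0.20 (SE, unadjusted p = 0.0246, limma adjusted p = 0.538), and -0.31 without animal 5 of the 18 °C group, the lowest array.

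**Figure D1:**
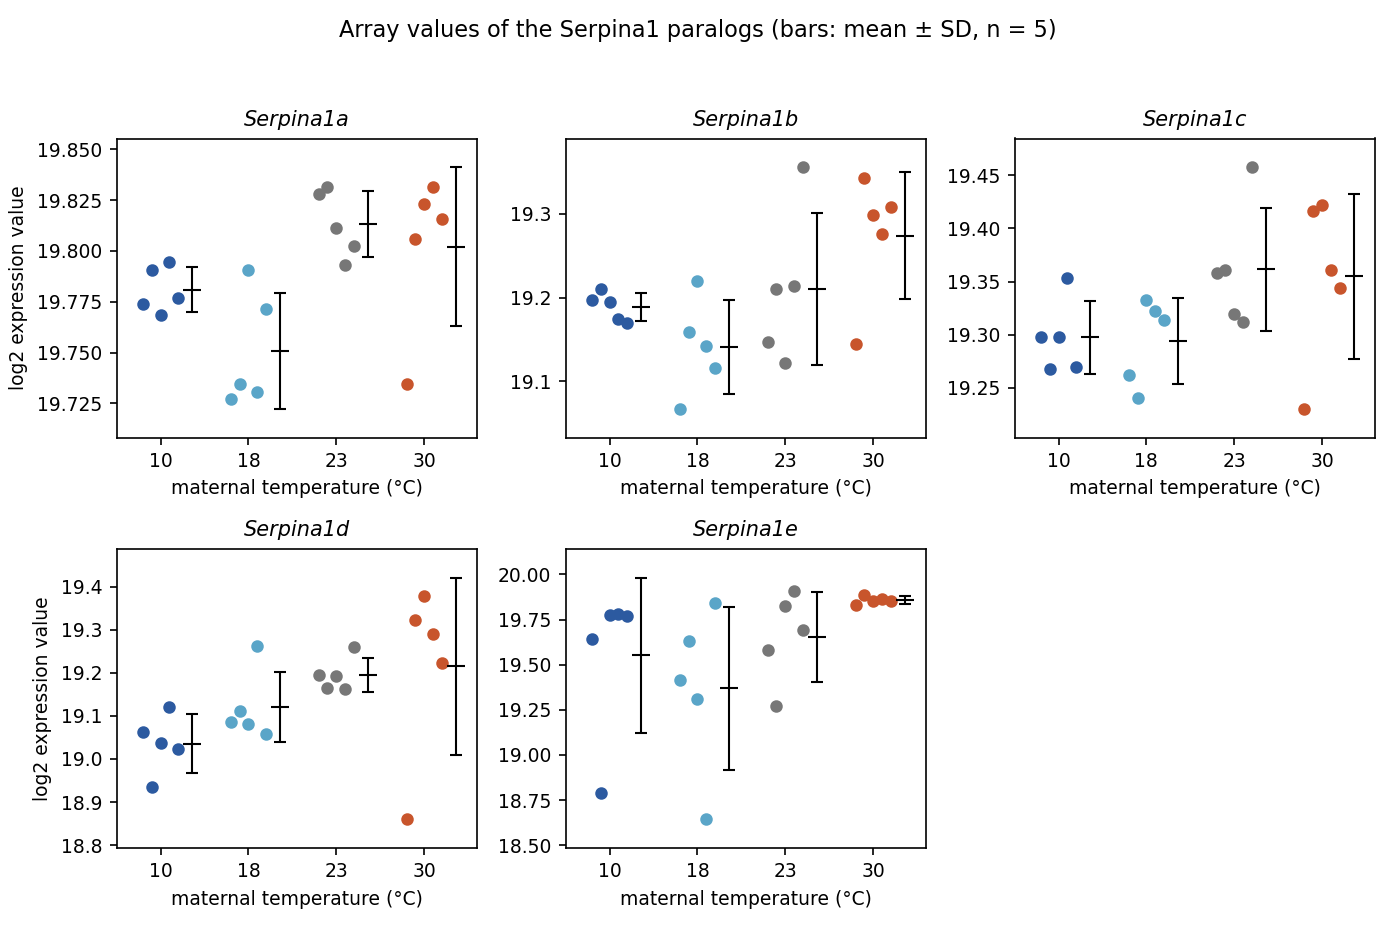
Log2 expression values (vertical axes, each with its own range) of Serpina1a to Serpina1e in each of the 20 arrays, by maternal temperature in °C; bars give the mean ± SD of 5 arrays. Serpina1d is lower in all 10 °C than in all 23 °C arrays, and the 30 °C arrays of Serpina1e lie between 19.83 and 19.89.

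Heparin cofactor II, Serpind1, was the member with the smallest F-test p. It inhibits thrombin in the presence of dermatan sulfate or heparin. Its arrays read 16.59, 16.70, 16.80, 16.88 and 16.87 in 10 °C offspring and 16.72, 16.59, 16.58, 16.55 and 16.59 in 18 °C offspring. They read 16.84, 16.89, 16.95, 17.001 and 16.92 in 23 °C offspring and 16.80, 17.05, 16.94, 17.14 and 17.11 in 30 °C offspring. All 18 °C arrays lay below every 23 °C and every 30 °C array, and the 10 °C arrays overlapped with each other group. Serpind1 was 0.32 lower on the log2 scale in 18 °C than in 23 °C offspring (difference -0.32 ± 0.11 SE, limma unadjusted p = 0.00785, adjusted p = 0.397). Against 30 °C the 18 °C difference was -0.40 ± 0.11 (limma unadjusted p = 0.00118, adjusted p = 0.352), and the 10 °C difference was -0.24 ± 0.11 (limma adjusted p = 0.721). The F-test gave an unadjusted p of 0.0062 and a limma adjusted p of 0.376. Groups without overlap were seen in 1.81% of clusters between 18 °C and 23 °C, and the members among these were Serpina1a, Serpind1 and Serping1. Between 18 °C and 30 °C such groups were seen in 1.41% of clusters, with Serpind1 the only member. Between 10 °C and 18 °C groups without overlap were seen in 1.42% of clusters and in 0 members.

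C1 inhibitor, Serping1, restrains C1r, C1s, plasma kallikrein and factor XIIa. It averaged 16.53 ± 0.20 in 10 °C, 16.40 ± 0.11 in 18 °C, 16.72 ± 0.17 in 23 °C and 16.39 ± 0.15 in 30 °C offspring. The 18 °C arrays (16.22 to 16.51) all lay below the 23 °C arrays (16.56 to 16.99), and the 30 °C arrays (16.25 to 16.64) overlapped with them. The differences from 23 °C were -0.19 ± 0.13 in 10 °C, -0.31 ± 0.13 in 18 °C and -0.32 ± 0.13 in 30 °C (SE, limma adjusted p = 0.605, 0.475 and 0.978). The 10 °C difference was -0.12 without animal 2 of that group. The control group thus held the highest mean of Serping1, and the warmest group a mean as low as that of 18 °C.

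The other serpins of clotting and fibrinolysis differed less. Antithrombin, Serpinc1, the main inhibitor of thrombin and factor Xa, ran from 17.84 to 18.13 over all arrays, and its group means lay between 17.93 and 18.02. Alpha-2 antiplasmin, Serpinf2, which inhibits plasmin, averaged 16.17 ± 0.13, 16.14 ± 0.15, 16.37 ± 0.11 and 16.38 ± 0.19 in 10, 18, 23 and 30 °C offspring. Its slope was 0.12 ± 0.06 (SE) per 10 °C of maternal temperature (limma unadjusted p = 0.0489, adjusted p = 0.609). For Serpind1 the slope was 0.15 ± 0.06 (limma unadjusted p = 0.0201, adjusted p = 0.549). Serpina10, the protein Z-dependent inhibitor of factor Xa, averaged 13.61 ± 0.49, 13.58 ± 0.12, 13.62 ± 0.22 and 13.83 ± 0.19 in the same order.

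Pigment epithelium-derived factor, Serpinf1, a secreted serpin without protease inhibition that is known as an anti-angiogenic factor, had the smallest adjusted p of any member. Its arrays read 13.28, 13.50, 13.66, 13.88 and 13.44 in 10 °C offspring, and 13.93, 14.14, 13.69, 13.86 and 13.38 in 18 °C offspring. The 23 °C arrays read 14.00, 14.31, 14.26, 14.02 and 13.86, and the 30 °C arrays 13.45, 13.66, 13.88, 13.97 and 13.67. The 23 °C group was high, and only animal 6 of the 10 °C group reached its lowest array. The 10 °C difference from 23 °C was -0.54 ± 0.15 (SE, limma unadjusted p = 0.00206, adjusted p = 0.188), and the 18 °C and 30 °C differences were -0.29 and -0.36 ± 0.15 (adjusted p = 0.978 for 30 °C). The 18 °C difference was -0.19 without animal 7 of that group. With the mean of the background control rows of each array as a covariate, the 10 °C difference was -0.40. Those rows averaged 3.71 in 10 °C and 18 °C, 3.65 in 23 °C and 3.66 in 30 °C arrays, and their part in the result was otherwise not tested. The negative control rows went the other way, with 4.53 in 10 °C, 4.49 in 18 °C, 4.63 in 23 °C and 4.59 in 30 °C arrays. Their part was not tested.

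**Figure D2:**
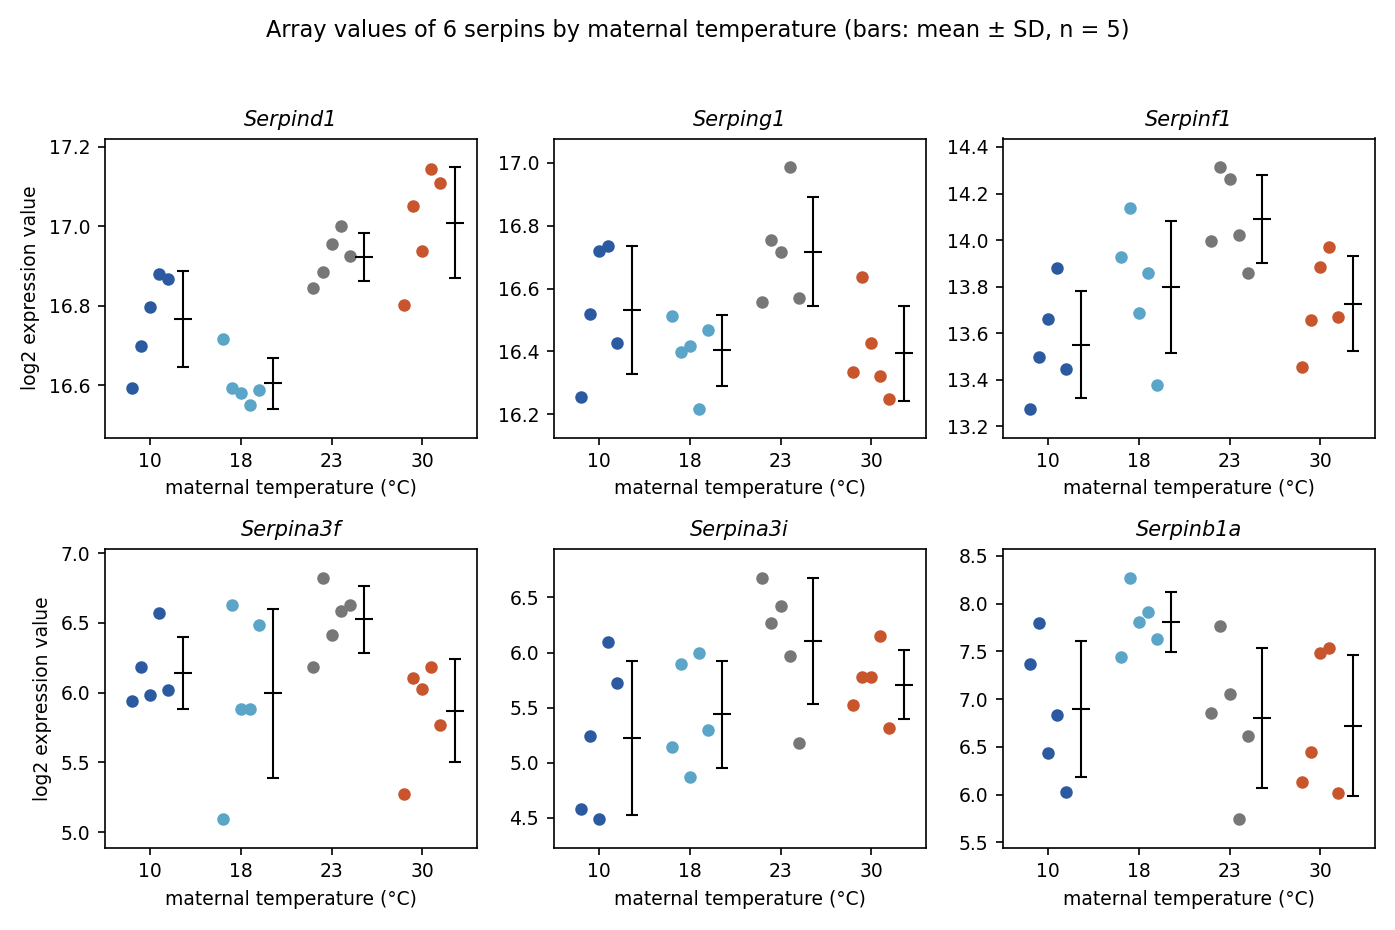
Log2 expression values (vertical axes, each with its own range) of Serpind1, Serping1, Serpinf1, Serpina3f, Serpina3i and Serpinb1a in each array, by maternal temperature in °C; bars give the mean ± SD of 5 arrays. The 18 °C arrays of Serpind1 lie below all 23 °C and 30 °C arrays, and Serpinb1a is highest on average in 18 °C offspring.

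The serpins that carry hormones differed widely between mice of the same group. Serpina7, the thyroxine-binding globulin, ran from 9.37 to 12.66 over the arrays, a 9.78-fold range. In 10 °C offspring the arrays read 9.71, 10.93, 10.10, 12.66 and 11.26, and in 30 °C offspring 9.84, 9.37, 10.20, 10.29 and 12.60. The highest arrays were thus single mice of the coldest and the warmest group, and the group means were 10.94 ± 1.15, 10.65 ± 1.01, 10.66 ± 0.63 and 10.46 ± 1.25 in 10, 18, 23 and 30 °C offspring. Serpina6, the corticosteroid-binding globulin, ran from 10.53 to 12.95, with group means between 11.69 and 12.02. No pair of groups of either gene differed by more than 0.48 on the log2 scale, against SEs of 0.56 for Serpina7 and 0.37 for Serpina6.

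Serpina3n, an inhibitor of cathepsin G and granzyme B known as an acute phase protein, averaged 14.87 ± 0.41, 14.88 ± 0.11, 14.94 ± 0.33 and 14.67 ± 0.35 in the 4 groups in order of temperature. Animal 6 of the 10 °C group stood at 15.60 and the other arrays of that group between 14.65 and 14.75. Serpina12, known as vaspin, an adipokine that inhibits kallikrein 7, had 18 arrays between 6.47 and 8.19. Animal 17 of the 23 °C group, at 5.17, and animal 8 of the 30 °C group, at 4.14, stood lower, the last below the mean of that array's negative control rows. The same pair of mice had the highest Serpina6 of all arrays, 12.95 and 12.88, and the lowest Serpina3n, 14.42 and 14.09. Across 20 arrays, after group means were removed, Serpina12 went against Serpina6 with r = -0.64 (Spearman's rho = -0.59, permutation p = 0.00761 and 0.0141, adjusted p = 0.314 and 0.327 over 325 pairs of members). Without the 2 arrays farthest from the median of Serpina12, r was -0.41.

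**Figure D3:**
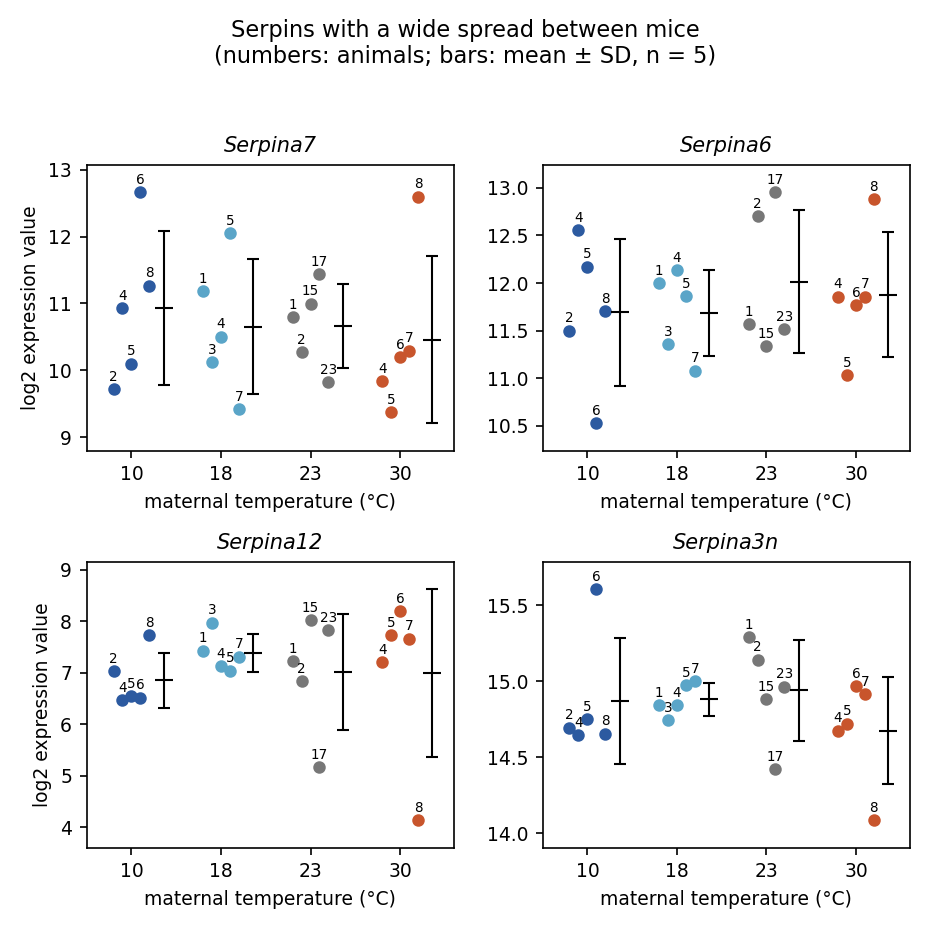
Log2 expression values (vertical axes, each with its own range) of Serpina7, Serpina6, Serpina12 and Serpina3n by maternal temperature in °C, with the animal number above each point; bars give the mean ± SD of 5 arrays. Animal 8 of the 30 °C group is the highest of its group in Serpina7 (12.60) and Serpina6 (12.88) and the lowest in Serpina12 (4.14) and Serpina3n (14.09).

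Serpina11, a liver serpin of little-known target, averaged 10.66 ± 0.40, 10.36 ± 0.30, 10.80 ± 0.59 and 10.94 ± 0.33 in 10, 18, 23 and 30 °C offspring. Its 18 °C difference from 30 °C was -0.58 ± 0.24 (SE, limma unadjusted p = 0.0264, adjusted p = 0.539).

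As a list, the 15 liver-secreted members were mostly lower in both cold groups than in the 23 °C group, by small amounts. By the sign of the difference, 14 of 15 were lower in 10 °C offspring, with a median log2 difference of -0.10, and 15 of 15 in 18 °C offspring, with a median of -0.07. The medians moved with single arrays: for 10 °C it was -0.06 without animal 4, -0.16 without animal 5 and -0.18 without animal 6 of that group, and for 18 °C it was -0.14 without animal 1 of that group and -0.22 without animal 23 of the 23 °C group. Serpina7 was the exception in 10 °C offspring. In 30 °C offspring 7 of 15 were lower (median 0.01). Against 30 °C, 12 were lower in 10 °C and 11 in 18 °C offspring, and between 10 °C and 18 °C 4 were lower in the former. Of all 10416 clusters above background, 49.4% were lower in 10 °C and 54.3% in 18 °C than in 23 °C offspring, with medians of 0.004 and -0.02. Among the 2338 clusters at least as bright as the dimmest of the 15, a set chosen after the values were seen, the shares were 59.1% and 62.1% and the medians -0.05 and -0.05. In 30 °C against 23 °C they were 50.7% of clusters above background and 58.5% of the bright ones. Against 30 °C, 49.2% and 53.2% of those sets were lower in 10 °C and 53.6% and 53.3% in 18 °C offspring, and 46% and 48.5% were lower in 10 °C than in 18 °C offspring. The counts of 14 and 15 each became 11 when the clusters were quantile normalised without the control rows, with medians of -0.06 and -0.02, and 12 and 11 with the background control rows as a covariate. Lower with an unadjusted p under 0.05 were 1 of the 15 between 10 °C and 23 °C (6.93% of clusters above background), 2 between 18 °C and 23 °C (6.08%) and 2 between 30 °C and 23 °C (2.36%). There were 1 between 10 °C and 30 °C (3.8%), 3 between 18 °C and 30 °C (5.99%) and 0 between 10 °C and 18 °C (4.24%). The 15 genes share arrays and cells and are not replicates. The negative control rows were also lower on average in 10 °C (4.53) and 18 °C (4.49) than in 23 °C arrays (4.63), and their part was not tested. In RNA of whole tissue, fewer cells of a type and less RNA per cell cannot be told apart.

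**Figure D4:**
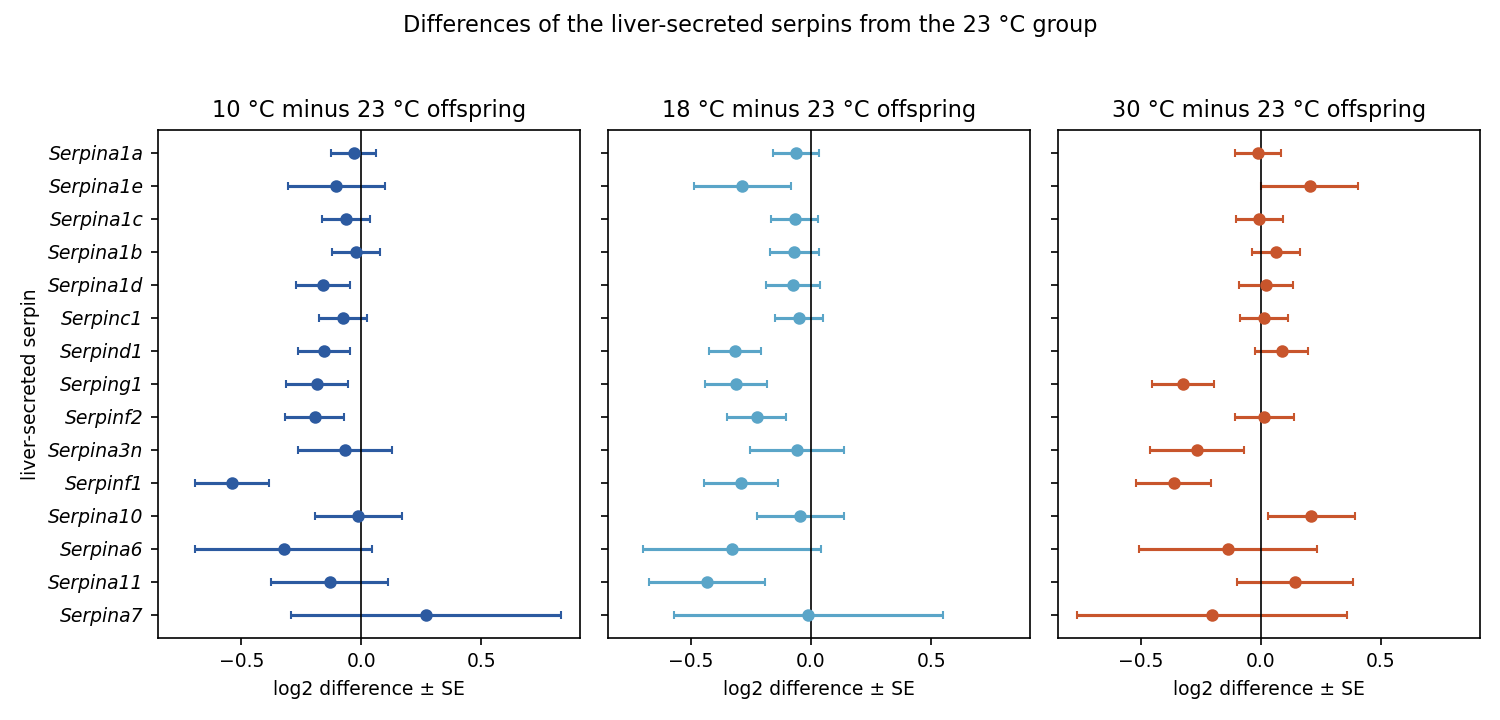
Log2 difference ± SE (limma, horizontal axis) of the 15 liver-secreted serpins between 10, 18 or 30 °C and 23 °C offspring, 5 mice per group, with a line at 0. In the 10 °C panel 14 points and in the 18 °C panel 15 points lie left of 0; the largest difference in the 10 °C panel is that of Serpinf1, -0.54.

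Of the Serpina3 cluster, a group of mouse copies related to human alpha-1 antichymotrypsin, Serpina3f and Serpina3i lay a little above background beside Serpina3n. Probes of these copies may also cross-hybridise. Serpina3f read 5.94, 6.18, 5.99, 6.57 and 6.02 in 10 °C offspring, and 5.10, 6.63, 5.88, 5.88 and 6.48 in 18 °C offspring. It read 6.18, 6.82, 6.41, 6.59 and 6.63 in 23 °C offspring, and 5.27, 6.11, 6.03, 6.18 and 5.77 in 30 °C offspring. The 30 °C arrays all lay below the 23 °C arrays, with the closest pair both at 6.18, and Serpina3f was the only member without overlap there (0.752% of clusters). The difference was -0.65 ± 0.23 (SE, limma unadjusted p = 0.00988, adjusted p = 0.978). In 18 °C offspring it was -0.53 ± 0.23 (limma adjusted p = 0.495), and -0.31 without animal 1 of that group, which held the lowest array.

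Serpina3i read 4.58, 5.24, 4.49, 6.09 and 5.72 in 10 °C offspring, and 5.14, 5.90, 4.87, 5.99 and 5.30 in 18 °C offspring. It read 6.68, 6.27, 6.43, 5.97 and 5.18 in 23 °C offspring, and 5.52, 5.78, 5.77, 6.15 and 5.32 in 30 °C offspring. Most 23 °C arrays were high, but animal 23 of that group was not, and the groups overlapped. The 10 °C difference from 23 °C was -0.88 ± 0.30 (SE, limma unadjusted p = 0.00803, adjusted p = 0.259), and the 18 °C difference was -0.66 ± 0.30 (adjusted p = 0.511). With the background control rows as a covariate these were -0.51 and -0.29. Within groups Serpina3i went against those rows with r = -0.42 (rho = -0.47, permutation p = 0.0288 and 0.0317, adjusted p = 0.300 and 0.330 over 52 relations, 20 arrays), and r was -0.40 without the 2 arrays farthest from the median of the rows.

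The collagen chaperone of the endoplasmic reticulum, Serpinh1, also called Hsp47, averaged 4.86 ± 0.17, 5.22 ± 0.58, 5.15 ± 0.38 and 5.09 ± 0.22 in 10, 18, 23 and 30 °C offspring, close to background. Of 8 collagen chains and collagen-modifying enzymes above background, 6 were lower in 10 °C (median -0.11), 3 in 18 °C (median 0.07) and 4 in 30 °C (median -0.03) than in 23 °C offspring, and 0 passed after adjustment. Among all clusters above background, 49.4%, 54.3% and 50.7% were lower by sign in these pairs. P4hb, a subunit of prolyl hydroxylase, averaged 14.80 in 10 °C and 15.20 in 23 °C offspring (limma adjusted p = 0.281). Col4a2, a chain of basement membrane collagen, went the other way, with 5.70 in 10 °C, 5.72 in 18 °C and 5.31 in 23 °C offspring (limma adjusted p = 0.328 and 0.452).

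Among the intracellular serpins of clade B, Serpinb1a, an inhibitor of neutrophil elastase and cathepsin G, had the largest difference of any member above background. It read 7.37, 7.80, 6.44, 6.83 and 6.03 in 10 °C offspring, and 7.44, 8.27, 7.81, 7.91 and 7.63 in 18 °C offspring. It read 6.85, 7.77, 7.05, 5.75 and 6.62 in 23 °C offspring, and 6.14, 6.44, 7.49, 7.54 and 6.01 in 30 °C offspring. The 18 °C arrays were all high, and 1 or more arrays of each other group reached them. The 18 °C differences were 1.01 ± 0.36 from 23 °C and 1.09 ± 0.36 from 30 °C (SE, limma unadjusted p = 0.0103 and 0.00608, adjusted p = 0.424 and 0.434), and 10 °C was lower than 18 °C by -0.92 ± 0.36 (adjusted p = 0.529). All 7 neutrophil markers, S100a8 and S100a9 among them, lay below background on the mean of the arrays, with summed levels of 21.5 to 24.2 in 18 °C and 21.8 to 23.6 in 23 °C arrays. A sum of rows below background cannot show whether the neutrophil content of the groups differed.

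The other clade B members above background were Serpinb6a, Serpinb6b, Serpinb6c, Serpinb6e, Serpinb8 and Serpinb9. Serpinb9, an inhibitor of granzyme B, ran from 6.87 to 8.12 and its group means lay between 7.41 and 7.50. Serpinb6a, an inhibitor of cathepsin G, averaged 7.12 ± 0.27, 7.11 ± 0.28, 6.88 ± 0.13 and 6.76 ± 0.35 in order of temperature, with a slope of -0.19 ± 0.08 (SE) per 10 °C (limma unadjusted p = 0.0278, adjusted p = 0.565). Serpinb8, an inhibitor of furin, averaged 5.61 ± 0.73 in 18 °C and 5.05 ± 0.32 in 23 °C offspring (limma adjusted p = 0.55), and the difference of 0.55 was 0.29 without animal 7 of the 18 °C group. Serpinb6c and Serpinb6e were above the mean of their own array's negative control rows in 17 and 14 of 20 arrays only. The Serpinb6 and Serpinb9 genes are clusters of close copies, so the same limit on probes holds.

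The 29 members below background had means from 2.36 to 4.24. They comprise 19 of clade B, 3 of the Serpina3 cluster, Serpina1f, Serpina5 and 5 others, and 5 of the 29 exceeded the negative control mean of their array on at least 1 array. Serpina1f, an epididymal copy of alpha-1 antitrypsin, was the only one with a pairwise p under 0.01. It averaged 2.16 ± 0.18 in 10 °C and 2.58 ± 0.25 in 30 °C offspring, a difference of -0.42 ± 0.13 (SE, limma unadjusted p = 0.00345, adjusted p = 0.662). Its slope was 0.21 ± 0.06 per 10 °C (limma unadjusted p = 0.0016, adjusted p = 0.444). Both means lay under the level of the negative control rows, 4.40 to 4.75 per array, so Serpina1f was not above background in any group.

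Members differed in how much mice of the same group varied. The SD within groups had a median of 0.29 over the 10416 clusters above background, with 0.23 and 0.36 as the lower and upper quartile and 0.56 as the 95th percentile. Of the 26 members 4 exceeded that percentile, namely Serpina12 (1.04), Serpina7 (1.04), Serpina6 (0.67) and Serpinb1a (0.65), and 11 exceeded the upper quartile. Below the lower quartile lay 8 members, from Serpina1a (0.03) to Serping1 (0.16), all of them liver-secreted, with means from 16.26 to 19.79. These are among the brightest rows of the array, and the clusters they were set against were not matched in brightness. Serpina1e, with a mean of 19.61, had an SD of 0.34.

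**Figure D5:**
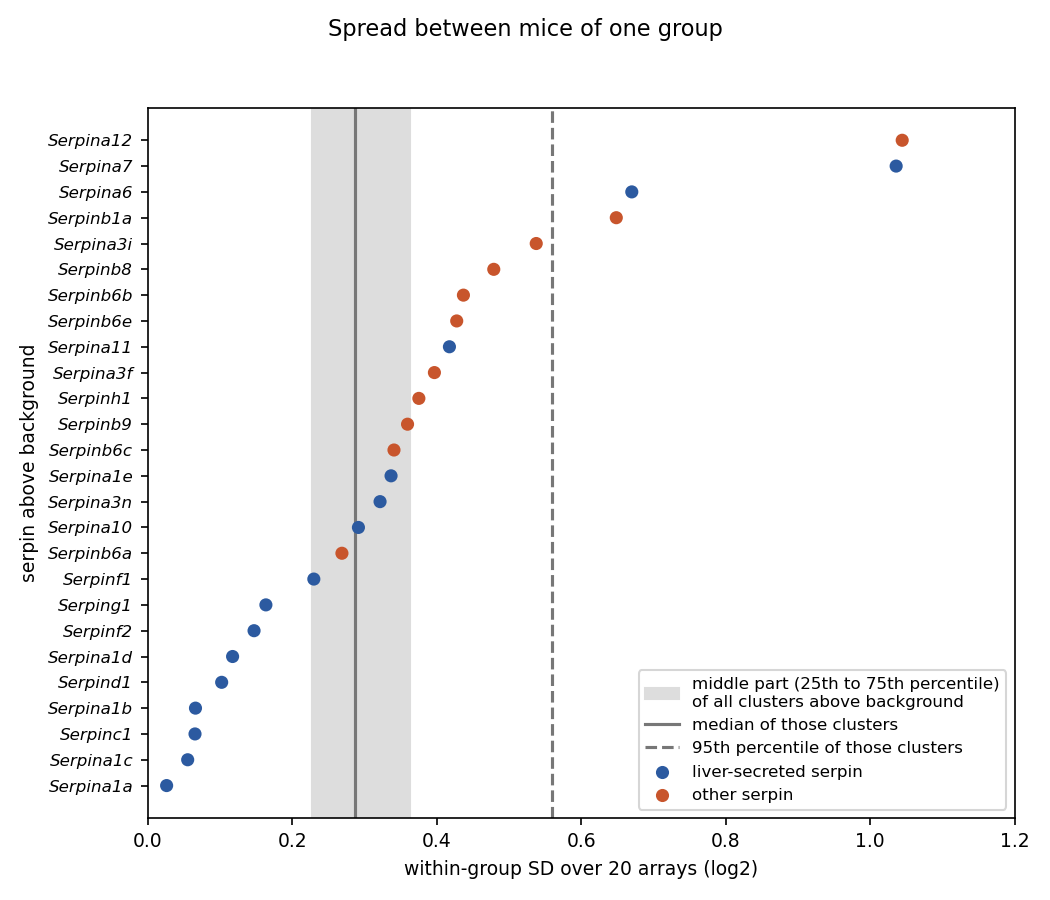
Within-group SD of the log2 values over 20 arrays (horizontal axis) of the 26 serpins above background, in order; the grey band spans the 25th to the 75th percentile of 10416 clusters above background, the lines mark their median (0.29) and 95th percentile (0.56). Serpina12 and Serpina7 lie farthest right at 1.04 and Serpina1a farthest left at 0.03.

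Members were also set against each other and against measures of the array within groups. Of 325 pairs of the 26 members, 0 passed at an adjusted permutation p under 0.05. The closest was Serpinb6a with Serpinb6e (r = -0.74, rho = -0.77, permutation p = 0.00022 and 0.00016, adjusted p = 0.0536 and 0.052, 20 arrays), and r was -0.68 without the 2 arrays farthest from the median of Serpinb6a. Among the paralogs the closest pair was Serpina1c with Serpina1d (r = 0.78, rho = 0.65, permutation p = 6e-04 and 0.00211, adjusted p = 0.0544 and 0.137), with r = 0.66 without 2 arrays. Serpina1e went with none of its copies, with r between -0.10 and -0.03. Of 52 relations of members with the background control rows or with a clock score, the mean of evening minus morning clock genes, 0 passed. Serpina1d had the smallest p, against the background rows (r = -0.83, rho = -0.62, permutation p = 0.00368 and 0.0107, adjusted p = 0.136 and 0.278), with r = -0.62 without 2 arrays. Animal 4 of the 30 °C group, lowest in Serpina1d, had the highest mean of those rows, 3.75. Correlations with other array measures were looked at too and are not tested here.

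The proteases that serpins inhibit were compared from a list. Of 15 measured above background, 0 passed after adjustment in any pair, 9 were lower in 10 °C and 11 in 18 °C than in 23 °C offspring, and 11 were higher in 30 °C. Against 30 °C, 13 were lower in 10 °C and 12 in 18 °C offspring. Of all clusters above background, 49.4%, 54.3% and 50.7% were lower in 10, 18 and 30 °C than in 23 °C offspring. Against 30 °C, 49.2% of those clusters were lower in 10 °C and 53.6% in 18 °C offspring. Masp2, the protease of the lectin pathway that C1 inhibitor restrains, averaged 17.20 in 23 °C and 16.81, 16.99 and 16.80 in 10, 18 and 30 °C offspring. Protein C, Proc, averaged 16.53 in 18 °C and 16.90 in 30 °C offspring, without overlap (limma adjusted p = 0.408). Factor XII, F12, averaged 13.20 in 10 °C, 13.10 in 18 °C, 13.09 in 23 °C and 13.43 in 30 °C offspring. Its 30 °C arrays lay above all arrays of the 10, 18 and 23 °C groups (limma adjusted p = 0.762, 0.474 and 0.978). Groups without overlap were seen in 0.982%, 1.41% and 0.752% of all clusters in these pairs.

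Among 17 plasma and tissue inhibitors outside the serpin family, 10 were lower in 10 °C (median -0.11) and 3 in 30 °C (median 0.07) than in 23 °C offspring. In 18 °C offspring 15 were lower than in 23 °C (median -0.21) and 15 than in 30 °C offspring (median -0.30), where 11 had an unadjusted p under 0.05 and 0 passed after adjustment in limma. At that level 5.99% of all clusters above background were lower in that pair, and 53.6% were lower by sign. Against 23 °C, 49.4% of those clusters were lower by sign in 10 °C, 54.3% in 18 °C and 50.7% in 30 °C offspring. Mug2, a murinoglobulin that traps proteases, averaged 14.06 in 18 °C against 15.06 in 23 °C and 15.05 in 30 °C offspring, and the 18 °C difference from 30 °C was -0.99 ± 0.17 (SE, limma adjusted p = 0.0652, and 0.0551 against 23 °C). Pzp, an alpha-macroglobulin, averaged 17.79 in 18 °C and 18.24 in 23 °C offspring (limma adjusted p = 0.299), and Itih3, an inter-alpha-trypsin inhibitor chain, 15.52 in 18 °C and 16.03 in 30 °C offspring (adjusted p = 0.408). Tfpi, the tissue factor pathway inhibitor, lay higher in both cold groups, at 7.26 and 7.26 against 6.75 in 23 °C offspring (limma adjusted p = 0.281 and 0.433).

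Of 16 partners, chaperones and clearance receptors of serpins above background, 13 were lower in 10 °C, 11 in 18 °C and 12 in 30 °C than in 23 °C offspring, with medians of -0.08, -0.07 and -0.05, and 0 passed. The shares of all clusters above background lower by sign were 49.4%, 54.3% and 50.7%. Lrp1, the receptor that clears serpin complexes, averaged 14.21 in 10 °C and 13.78 in 18 °C offspring, without overlap (limma adjusted p = 0.453). Groups without overlap were seen in 1.42% of all clusters in that pair. Agt, angiotensinogen, a serpin by structure that the symbol rule leaves out, averaged 17.10, 16.96, 17.16 and 17.27 in order of temperature. Of 11 transcription factors known to act on liver serpin genes, 7 were lower in 10 °C, 8 in 18 °C and 4 in 30 °C than in 23 °C offspring and 0 passed, with Nr3c1, the glucocorticoid receptor, at 7.41 against 8.05 (limma adjusted p = 0.299). Foxa3, a forkhead factor, averaged 6.97 in 10 °C and 7.67 in 30 °C offspring (limma adjusted p = 0.683). Stat3 went the other way, with 11.25 in 10 °C and 10.76 in 23 °C offspring (limma unadjusted p = 0.0295, adjusted p = 0.373). It was the only factor of the list with an unadjusted p under 0.05 in that pair.

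Acute phase genes were set beside Serpina3n. Of 17, 6 were lower in 10 °C (median 0.08), 16 in 18 °C (median -0.19) and 7 in 30 °C (median 0.03) than in 23 °C offspring, with 0 passing after adjustment. Among all clusters above background, 49.4%, 54.3% and 50.7% were lower by sign in these pairs. Lower with an unadjusted limma p under 0.05 were 1, 3 and 1 of the 17, against 6.93%, 6.08% and 2.36% of those clusters. Of 12 heat shock genes, 12 were lower in 10 °C (median -0.73), 8 in 18 °C (median -0.08) and 12 in 30 °C (median -0.42) than in 23 °C offspring. At an unadjusted p under 0.05, 10 were lower in 10 °C, 0 in 18 °C and 1 in 30 °C offspring, against 6.93%, 6.08% and 2.36% of clusters above background, and 0 passed after adjustment. Serpinh1, which heat shock factors also drive, differed by -0.29 ± 0.22 (SE) between 10 °C and 23 °C offspring, and by -0.19 without animal 2 of the 23 °C group. In 18 °C offspring it differed from 23 °C by 0.07 ± 0.22 and in 30 °C offspring by -0.06 ± 0.22 (SE). Its mean of 5.08 lay close to background, and a shared driver was not tested.

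For the series as a whole, all 5 measured hepatocyte markers and all macrophage and endothelial markers lay above background, and all neutrophil and lymphocyte markers below it. The summed macrophage levels (56.4 to 67.7) and endothelial levels (71.8 to 77.6) overlapped between all groups. The hepatocyte sum was 96.1 to 96.4 in 10 °C, 95.9 to 96.5 in 18 °C, 96.5 to 97.0 in 23 °C and 95.8 to 97.0 in 30 °C arrays, without overlap between 10 °C and 23 °C, and its part in the serpin values was not tested. The brightest row stood at 19.84 to 19.92 in 10 °C and 19.88 to 19.93 in 23 °C arrays, and no arrays were identical.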

How the data were processed

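Liver RNA of 20 mice was hybridised to Affymetrix arrays, and the deposited log2 expression values were made with RMA (background correction, quantile normalisation and a summary of probes) in the Transcriptome Analysis Console, per the submitters' processing notes. Versions, settings and a genome build are not given in the sources used here. Quantile normalisation hides a shift common to all transcripts, and RMA compresses differences of dim rows. Of 28846 rows, 6640 were control rows and 22206 transcript clusters, of which 19572 have 1 gene symbol in the platform annotation and 2634 none. Values were checked for identical arrays (0 found), and correlations between arrays were 0.987 to 0.993. The number of arrays limits the precision.

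A linear model with a mean for each group was fitted to all clusters and 20 arrays (limma 3.58.1, its moderated tests, under R 4.3.3), two-sided, with Benjamini-Hochberg adjustment over all clusters within each test. Errors are limma's SE or the SD of 5 arrays. A member's row was to be the one with the highest mean of its symbol. Values of all 5 arrays per group were given for members above background with an F-test p under 0.05 or a pairwise p under 0.01, and for some others after their values were seen. From each gene list up to 4 genes with the smallest F-test p could be named. Members and lists were chosen with earlier results of these data known. Relations used deviations from group means and 100000 permutations within groups. Serpina3c, Serpina3k and Serpina3m are not analysed here. Promoters came from RefSeq, with entries for 49 of 55 members. The fits were also run on simulated data with independent normal noise in each cluster. Such data hold no litters, array-wide shifts or ties between clusters, so the run cannot show how the tests behave with these. Alternatives left out each array, fitted only the groups compared, used trended and robust variances, array weights, another quantile normalisation, covariates, a filter on dim rows, the mean of a symbol's rows and a block for animal numbers.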

Additional observations from a re-analysis of the deposited data

Results flagged for a closer look

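In 8 of 104 sets of 5 arrays (26 members above background in 4 groups), a single array stood apart from the others by more than Dixon's 95% limit, where chance gives about 5.2, 1 in 20. Animal 8 of the 30 °C group accounted for 3 of them, with Serpina12 at 4.139 (the others 7.21 to 8.19), Serpina7 at 12.6 (the others 9.37 to 10.29) and Serpinb6e at 4.37 (the others 4.94 to 5.01).

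Of the alpha-1 antitrypsin paralogs, Serpina1a stood at 19.73 in animal 4 of the 30 °C group (the others 19.81 to 19.83). Serpina1d was high at 19.26 in animal 5 of the 18 °C group (the others 19.06 to 19.11). Serpina1e was low at 18.79 in animal 4 of the 10 °C group (the others 19.64 to 19.78). Serpina3n was high at 15.6 in animal 6 of the 10 °C group (the others 14.65 to 14.75), and Serpind1 was high at 16.72 in animal 1 of the 18 °C group (the others 16.55 to 16.59).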

How the results depend on the processing

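Under 9 other settings and with each of the 20 arrays left out in turn, 0 serpin members passed in any pair of groups, in the F-test or in the slope wherever these could be fitted (range 0 to 0), with smallest adjusted p-values from limma of 0.12 between 10 °C and 23 °C (without animal 6 of the 10 °C group) and 0.207 between 18 °C and 30 °C (trended and robust variances). The 12 pairwise differences refitted for Serpind1, Serpinf1, Serpina3f, Serpina3i and Serpinb1a were those with an unadjusted limma p under 0.05. They kept their direction in 339 of 339 refits, and none passed after adjustment. Many refits could not move a difference, such as leaving out an array of a group not compared, fitting only the groups compared or filtering dim rows. The choice by p also favours a kept direction, so this count does not measure stability. With the background control rows as a covariate, Serpina3i differed from 23 °C by -0.51 in 10 °C and -0.29 in 18 °C offspring. The cause was not tested. The number of liver-secreted members that were lower ranged from 11 to 15 both for 10 °C and for 18 °C against 23 °C, and from 5 to 9 for 30 °C against 23 °C. Their medians ranged from -0.18 to -0.04, -0.22 to -0.02 and -0.02 to 0.04. Between 10 °C and 18 °C it was 4, and 7 without animal 6 of the 10 °C group. Animal numbers name different mice. Among the shared numbers, deviations of same-numbered mice correlated at -0.19 to 0.04 over 4 pairs (10 °C with 30 °C) and -0.23 to 0.06 over 3 pairs (18 °C with 30 °C), and in each 1 mouse correlated best with its own number. With the replicate block, 0 members passed in either comparison, as without it, and Serpind1 differed by -0.16 between 10 °C and 30 °C. The mean of a symbol's rows gave the same fit, since no member has a second row. Rows near 4.75 and below lie at the level of the negative control rows.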
